A study of Mus musculus with 6 samples.

Results

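The cytosolic ribosomal protein genes encode the protein subunits of the ribosome that translates nuclear mRNAs. They were described here in DN1 (double-negative 1) thymocytes sorted from mice, the compartment that holds the earliest T-cell progenitors. Members were the symbols that start with Rpl or Rps and a digit, plus Rplp0, Rplp1, Rplp2 and Rpsa, without pseudogene symbols and without the Rps6k kinases. The deposited tables held 88 such symbols, and 81 of them stood alone in their row apart from snoRNA or miRNA symbols, among 22447 genes or joined genes in all. The other 7 symbols shared a row with another gene in at least 1 library. By symbol, the 81 members are 40 proteins of the large subunit, 29 of the small subunit, 3 of the large subunit's stalk, 8 paralogs and Rps19bp1, which fits the naming rule but encodes a protein that binds Rps19 and is not a ribosomal subunit.

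The study compared Tle134-deficient with WT DN1 cells, and Tle134 is read as Tle1, Tle3 and Tle4, Groucho family corepressors that bind Tcf/Lef and Runx factors. Libraries 1 to 3 of each genotype came from mice of 5 to 8 weeks, and all 6 libraries were made from cells sorted for CD44 and against CD25, TCRb, CD8a and a lineage mixture. The sources used here do not give the strain, how the alleles were deleted, or in which cells. Separate animals are not stated for the 3 libraries of a group, so p-values here reflect library-to-library spread only, part of which may be technical.

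Most ribosomal proteins are built into ribosomes in equal amounts. In mammals the proteins are usually each made from 1 active gene with many processed pseudogene copies. Their mRNAs typically begin with a C inside a tract of pyrimidines, the 5′ terminal oligopyrimidine tract, through which mTOR signalling and Larp1 control their translation together. In the mouse thymus the family is known for Rpl22, whose loss blocks development of alpha-beta T cells while leaving gamma-delta T cells, and for Rpl22l1, its paralog. The start windows are shown for 8 members whose levels are given below. These members include the paralog pair Rpl22 and Rpl22l1, the S6 kinase substrate Rps6, and the abundant members Rplp2 and Rpl38. The others are 3 members with a value far from the family in at least 1 library (Rpl5, Rpl23 and Rps15a). Expression was not compared with the windows. Each window holds 15 bases before and 15 after the annotated start, 5′ to 3′ on the gene strand, from RefSeq on GRCm38.p6, and capitals mark the longest run of C or T:
Rpl22: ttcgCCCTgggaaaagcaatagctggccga
Rpl22l1: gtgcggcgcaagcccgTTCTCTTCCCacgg
Rpl5: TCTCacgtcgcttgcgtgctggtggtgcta
Rpl23: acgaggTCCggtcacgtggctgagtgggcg
Rps15a: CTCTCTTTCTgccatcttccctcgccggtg
Rps6: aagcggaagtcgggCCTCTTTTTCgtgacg
Rplp2: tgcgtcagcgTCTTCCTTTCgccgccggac
Rpl38: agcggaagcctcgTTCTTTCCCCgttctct
Within the window the run was 10 bases long in Rpl22l1, Rps15a, Rps6, Rplp2 and Rpl38. It was 3 to 4 bases long at the annotated starts shown for Rpl22, Rpl5 and Rpl23. The runs of Rpl5 and Rps15a begin at the first base of the window, so they may extend beyond it. Rpl22 had 2 annotated starts, and only the first is shown. RefSeq held promoter entries for 62 of the 81 member symbols, with 73 starts in all. A run of 8 or more C or T within 15 bases of the start was found at 25 of these 73 starts (34.2%), against 12% of all 32851 promoter entries. In the window of 250 bases before to 50 after the start, CTTTCC on either strand was present in 50.7% of the member entries and 26.6% of all entries. CCGGAAG, the core to which Ets factors such as GABP bind, was present on either strand in 34.2% against 8.86%, and no member window held matches of CTTTCC and CCGGAAG that shared letters. CACGTG, the E-box that Myc and other factors bind, was present in 8.22% against 7.15%, and TATAAA on either strand in 9.59% against 13.6%. These matches describe letters only, and a start in RefSeq can lie some bases from the start used in these cells.

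Expression was deposited as FPKM, a fragment rate scaled to gene length and to library size. No counts were used and depth is unknown. The deposited interval around a member's value had a median half-width of 4.58% to 6.91% of the value per library. Mean levels of Tle1, Tle3 and Tle4 were not lower in the libraries labelled Tle134-deficient. Tle1 was at 11.5, 11.3 and 11.1 FPKM there, against 1.37, 1.19 and 3.61 FPKM in WT. Tle3 was at 82.6, 77.5 and 58.6 FPKM under the deficient label, against 26.1, 35.9 and 23.4 FPKM in WT, and Tle4 at 27.8, 35.2 and 17.8 FPKM under the deficient label, against 17.9, 18.8 and 14.5 FPKM in WT. The sources used here do not say which exons were deleted, and reads from other exons would enter these values, so the group is called labelled-deficient. Cd44 was at 32.5 to 74.3 FPKM over labelled-deficient libraries and 27.5 to 53.4 FPKM in WT, and Il2ra, which encodes CD25, at 4.22 to 7.36 FPKM over labelled-deficient libraries and 1.69 to 3.59 FPKM in WT. B-cell markers were higher in the labelled-deficient libraries, with 8 of 10 past the threshold and a summed level of 626 to 1004 FPKM against 75.3 to 143 FPKM in WT. None of the 10 T-lineage markers passed (200.4 to 700.1 FPKM summed against 419 to 1139 FPKM in WT), and all 10 had a log2 difference below 0. Cd247 came nearest, at 11.7 to 22.6 FPKM over labelled-deficient libraries and 39.7 to 106 FPKM in WT (limma adjusted p = 0.089). Monocyte, macrophage and neutrophil markers, 11 in the files, summed to 104 and 119 FPKM in labelled-deficient replicates 1 and 2 and to 1317 FPKM in replicate 3, against 126, 287 and 545 FPKM in WT, and none of the 7 tested passed. No marker of these 3 lists was at 0 in all libraries, and their part in the values below was not tested. In bulk RNA, fewer cells of a type and less RNA per cell cannot be told apart.

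The first question was whether ribosomal protein mRNA levels differed between the labelled-deficient and the WT libraries. No member passed the test: of 77 members that reached 1 FPKM in at least 3 libraries, 0 were higher and 0 lower (limma on log2(FPKM + 1), adjusted p under 0.05), where 0.787% of all 11056 genes tested were called, 0.66% as higher and 0.127% as lower. None of the 77 had an unadjusted p under 0.05 either, against 1108 of all genes. The smallest adjusted p was 0.781 by limma, for Rpl22l1. The groups overlapped for all 77 tested members, while 15.2% of all genes tested had groups that did not overlap, 8.67% as higher and 6.57% as lower. The median log2 difference of the members, labelled-deficient minus WT, was -0.12, against 0.04 over all genes tested, with 57 members below 0 and 20 above. This count is of genes that moved together from library to library, so it is no sum of independent signs.

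**Figure D1:**
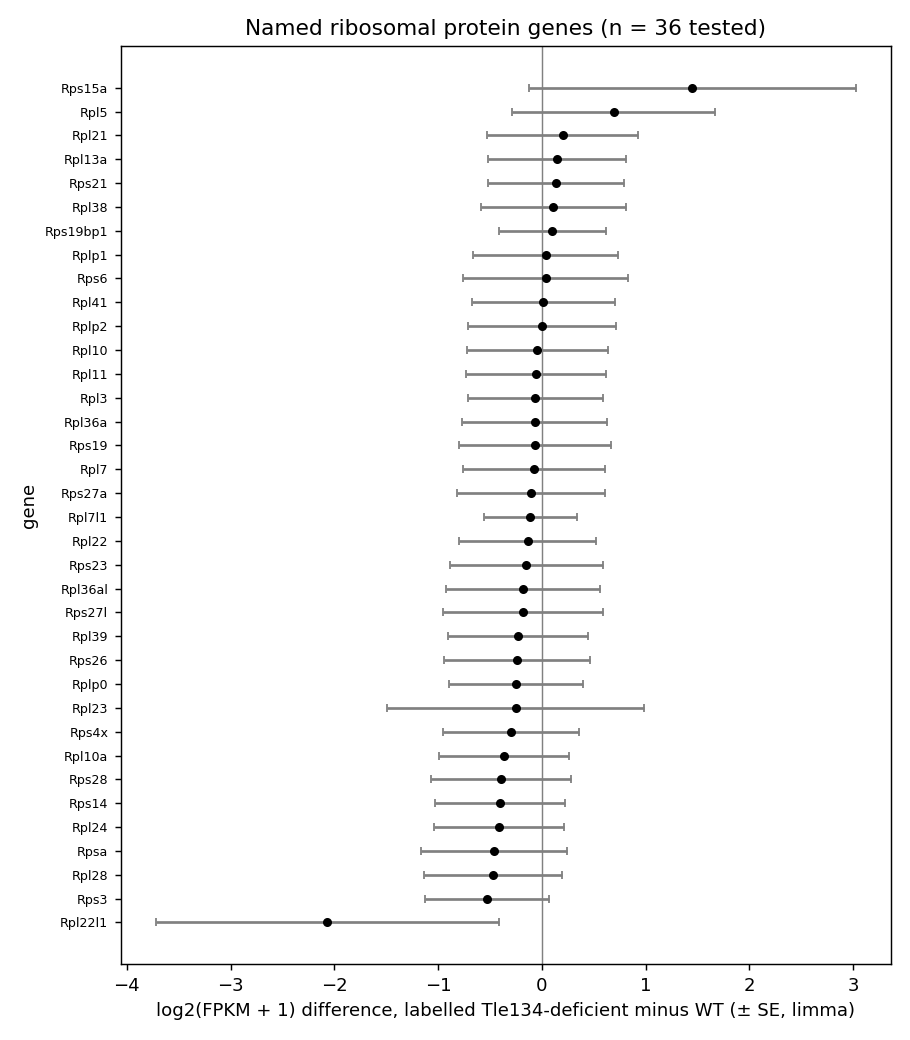
Difference in log2(FPKM + 1), labelled Tle134-deficient minus WT, for 36 named members tested, as points with bars of ± SE from limma, one gene per row. Rps15a (1.45), Rpl5 (0.69) and Rpl22l1 (-2.07) lie farthest from 0, with wide bars, and the other points lie between -0.53 (Rps3) and 0.20 (Rpl21).

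The differences were small beside their error. The SE of a member's log2 difference had a median of 0.68, against 0.51 over all genes tested, so the family was measured less precisely as a contrast between groups than a typical gene, although its members are among the most abundant mRNAs. Leaving out 1 library turned the direction of the family. The median difference was 0.40 when WT replicate 3 was left out and 0.24 when labelled-deficient replicate 2 was. It was -0.04 and -0.56 when labelled-deficient replicate 1 or 3 was left out, and -0.35 and -0.37 when WT replicate 1 or 2 was. With both libraries numbered 3 left out, a choice made after seeing the data, it was -0.03, and 0 members passed the threshold in any of these fits.

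The level of the family varied more between libraries of a group than between the labelled groups. The median member stood at 472, 299 and 974 FPKM in labelled-deficient replicates 1 to 3, against 412, 383 and 1152 FPKM in WT replicates 1 to 3 (76 members above 0 in every library). The third library of each group was thus the highest of its group, and the 2 groups interleaved. Of the 76 members, 75 were higher in labelled-deficient replicate 3 than in both other labelled-deficient libraries, and 74 were higher in WT replicate 3 than in both other WT libraries. Among all genes tested the same held for 44.8% and 53.5%. WT replicate 3 held the highest value of 68 members and labelled-deficient replicate 2 the lowest value of 64.

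**Figure D2:**
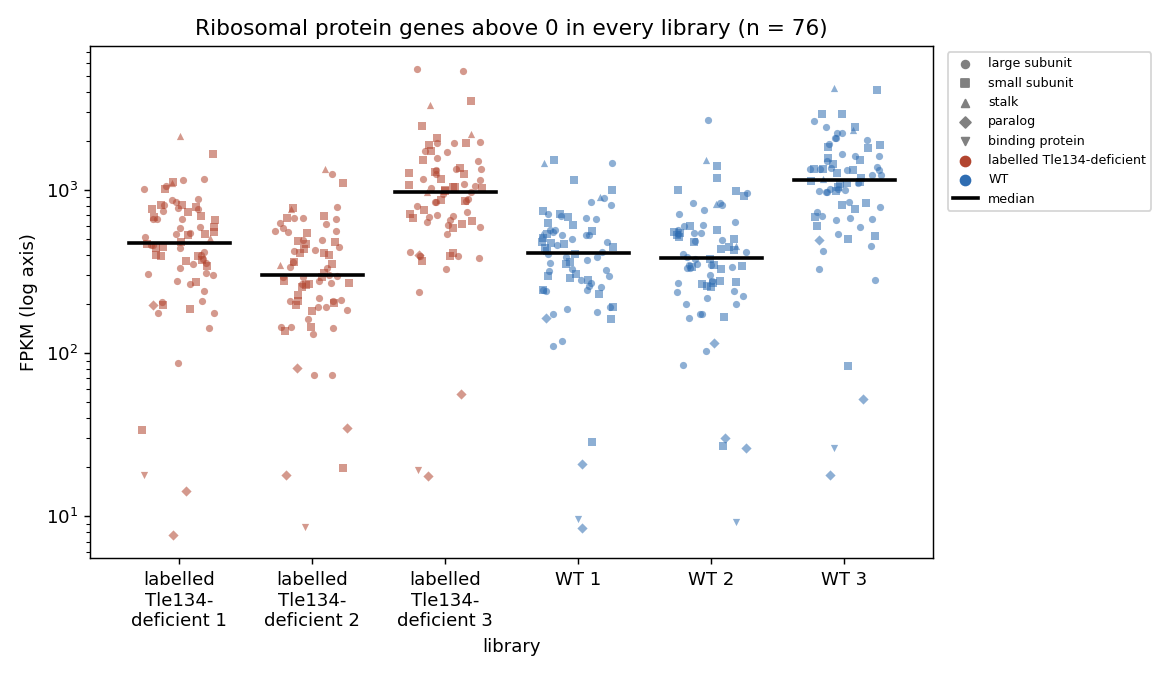
FPKM on a log axis (y) of the 76 members above 0 in every library, by library (x), with a marker shape for each role, red for labelled Tle134-deficient, blue for WT and a black bar at the median. The medians of both libraries numbered 3 (974 and 1152 FPKM) lie above those of the other 4 (299 to 472 FPKM).

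Genes of both subunits showed this pattern. Relative to the mean of the 6 libraries, the median log2 departure of large subunit genes was -0.16, -0.69 and 0.73 in labelled-deficient replicates 1 to 3, against -0.40, -0.50 and 1.07 in WT. For small subunit genes it was -0.21, -0.81 and 0.80 in the labelled-deficient libraries, against -0.41, -0.46 and 1.07 in WT. Other abundant genes moved the same way with a smaller size: 215 genes outside the family with a mean of 100 FPKM or more departed by -0.05, -0.57 and 0.58 in the labelled-deficient libraries and by -0.38, -0.47 and 0.73 in WT. Over all 10538 genes above 0 in every library the departures were -0.03, -0.13 and 0.21 in the labelled-deficient libraries and -0.25, -0.12 and 0.29 in WT. The summed level of the myeloid markers was also highest, within each group, in the libraries numbered 3, as given above. This held for the sum and not for every marker, and the part of myeloid cells in the pattern was not tested. The labels name no extraction or sequencing batch, so whether the libraries numbered 3 share one was not tested.

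**Figure D3:**
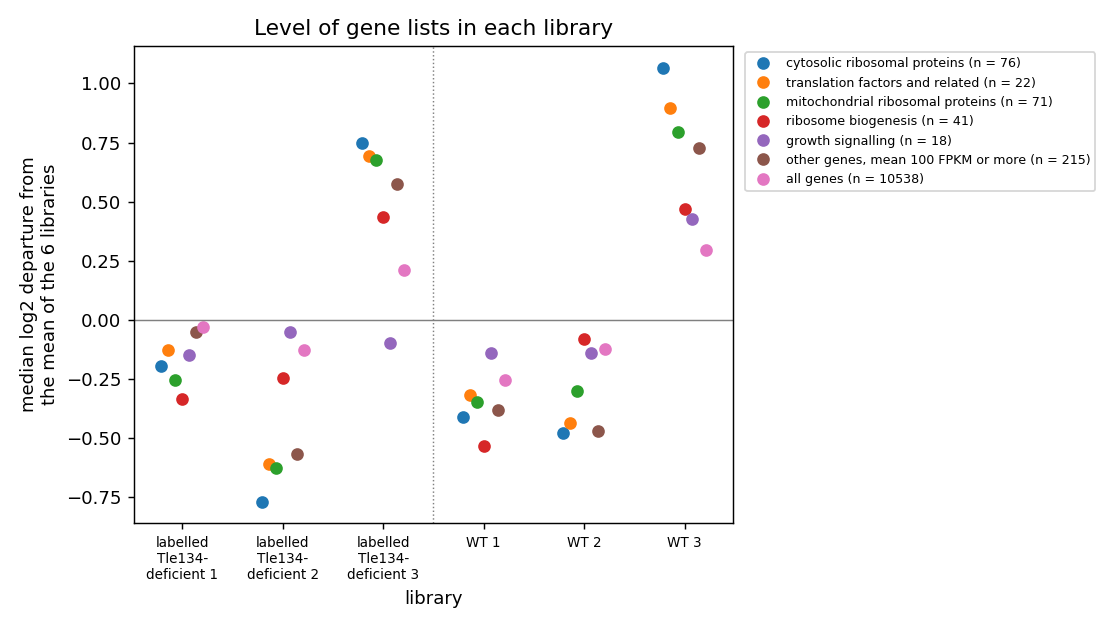
Median log2 departure of each gene list from its mean over the 6 libraries (y) by library (x), for genes above 0 in every library, with labelled Tle134-deficient left of WT. Cytosolic ribosomal protein genes lie farthest from 0 in both libraries numbered 3 (0.75 and 1.07) and in labelled-deficient replicate 2 (-0.77), with translation factors and mitochondrial ribosomal protein genes closest to them there.

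As a share of the summed FPKM of named genes, the family could be read only after very high values were set aside. In each library 1 to 7 genes exceeded 10000 FPKM, such as Znrd1 at 474260 FPKM in labelled-deficient replicate 1 and Man2b2 at 510211 FPKM in WT replicate 3. Of 21 genes above that limit somewhere, 19 were above it in a single library and below 1000 FPKM in all others. With all genes in the sum, the members made up 2.70%, 5.29% and 11.95% in labelled-deficient replicates 1 to 3, against 3.34%, 14.3% and 4.25% in WT. With those 21 genes left out, a choice made after seeing the data, the share was 16.3%, 13.6% and 25.4% in the labelled-deficient libraries, against 16.9%, 17.8% and 26.0% in WT. The groups overlapped on both scales, and on the second the libraries numbered 3 were again the highest.

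Of the stalk proteins, which recruit the elongation factors to the ribosome, the genes Rplp2 and Rplp1 were among the members with the highest mean FPKM. Rplp2 (chromosome 7, 148633549 to 148637241; coordinates are those of the deposited rows, on mm9) had the highest mean of all members. It stood at 2153, 1336 and 3290 FPKM in labelled-deficient replicates 1 to 3, against 1466, 1524 and 4235 FPKM in WT replicates 1 to 3. The groups overlapped throughout, and the log2 difference was 0.00 ± 0.71 (SE, limma adjusted p = 1). Rplp1 was at 1099, 765 and 2212 FPKM across labelled-deficient replicates 1 to 3 and 904, 813 and 2335 FPKM across those of WT, and its difference was 0.04 ± 0.70 (SE, limma adjusted p = 0.997). Rplp0, which anchors the stalk to the ribosome, was lower on this scale per length, at 507, 345 and 969 FPKM across labelled-deficient replicates 1 to 3 and 539.5, 450.2 and 1172 FPKM across those of WT. All 3 stalk genes were higher in the libraries numbered 3 than in the other libraries of their group.

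Among large subunit proteins, Rpl5 and Rpl11 form the 5S particle with 5S rRNA and can bind and inhibit Mdm2, the ligase that destroys p53. Rpl11 (chromosome 4, 135605863 to 135609286) was at 541, 294 and 847 FPKM across labelled-deficient replicates 1 to 3 and 390.0, 348 and 1103 FPKM across those of WT. Its difference of -0.05 ± 0.67 (SE, limma adjusted p = 0.996) was far smaller than the spread between libraries. Rpl5 (chromosome 5, 108329420 to 108338024) was at 664, 559 and 5485 FPKM in labelled-deficient replicates 1 to 3, against 568, 418 and 2024 FPKM in WT replicates 1 to 3. The values of labelled-deficient replicate 3 and WT replicate 3 stood well above the others, the first with a deposited interval of 0 to 12353 FPKM, and the difference of 0.69 ± 0.98 (SE, limma adjusted p = 0.911) did not pass. Rpl23, another Mdm2-binding protein, showed the same kind of irregularity, at 303, 212 and 5366 FPKM across labelled-deficient replicates 1 to 3 and 281, 2666 and 781 FPKM across those of WT. Its 2 high values belonged to 1 library of each group.

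Rpl22 (chromosome 4, 151698545 to 151708191) was with Rpl15 the lowest of the large subunit proteins by mean, at 142, 73.0 and 237 FPKM across labelled-deficient replicates 1 to 3 and 119, 84.1 and 325 FPKM across those of WT. The groups overlapped, with a difference of -0.14 ± 0.66 (SE, limma adjusted p = 0.986). Rpl38, which in mouse embryos promotes translation of Hox mRNAs, was at 1055, 672 and 1699 FPKM across labelled-deficient replicates 1 to 3 and 570.3, 802 and 2085 FPKM across those of WT. The labelled-deficient range lay inside the WT range, with a difference of 0.11 ± 0.70 (SE, limma adjusted p = 0.987). Rpl13a, known in human myeloid cells for leaving the ribosome to silence inflammatory mRNAs, was at 1163, 1248 and 1721 FPKM across labelled-deficient replicates 1 to 3 and 1471, 605 and 2082 FPKM across those of WT, with its lowest value in WT replicate 2. Rpl41, a very short protein, was at 1145, 788 and 1940.5 FPKM across labelled-deficient replicates 1 to 3 and 848, 828 and 2419.5 FPKM across those of WT. The largest negative differences of the large subunit were those of Rpl28 and Rpl24, at -0.47 ± 0.67 (SE, limma adjusted p = 0.912) and -0.41 ± 0.63 (SE, limma adjusted p = 0.922). Rpl21 had the third largest positive one of the family, at 0.20 ± 0.73 (SE, limma adjusted p = 0.979). Rpl10a, at 267 ± 139 FPKM over labelled-deficient libraries and 350.1 ± 211 FPKM in WT (SD, n = 3 each), differed by -0.37 ± 0.63 (SE, limma adjusted p = 0.940).

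Among small subunit proteins, Rps23, which lies at the decoding centre, was the most abundant by mean. It stood at 1657, 1099.6 and 3487 FPKM in labelled-deficient replicates 1 to 3, against 1521, 1393 and 4109 FPKM in WT replicates 1 to 3. In both groups replicate 3 stood far above the other libraries, and the difference was -0.15 ± 0.74 (SE, limma adjusted p = 0.986). Rps26 was also among the highest, at 1320.5 ± 671 FPKM over labelled-deficient libraries and 1646 ± 1113 FPKM in WT (SD, n = 3 each). Rps6, the substrate of the S6 kinases downstream of mTOR, was at 445, 293 and 1884 FPKM across labelled-deficient replicates 1 to 3 and 361, 570.3 and 1108 FPKM across those of WT. The difference was 0.04 ± 0.79 (SE, limma adjusted p = 0.998). Rps19, the protein most often mutated in human Diamond-Blackfan anaemia, was at 734, 267 and 1065 FPKM across labelled-deficient replicates 1 to 3 and 407, 446 and 1319 FPKM across those of WT, a difference of -0.07 ± 0.73 (SE, limma adjusted p = 0.996).

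The largest negative differences of the small subunit were those of Rps3, which also has a role in DNA repair, of Rpsa, whose human counterpart is mutated in isolated congenital asplenia, and of Rps14, whose human counterpart lies in the interval lost in 5q- syndrome. Rps3 was at 196, 145 and 369 FPKM across labelled-deficient replicates 1 to 3 and 193, 328 and 501 FPKM across those of WT, and its difference was -0.53 ± 0.60 (SE, limma adjusted p = 0.868). Rpsa was at 694, 484 and 1736 FPKM across labelled-deficient replicates 1 to 3 and 678, 1179.8 and 1886 FPKM across those of WT, a difference of -0.46 ± 0.70 (SE, limma adjusted p = 0.926). Rps14 was at 367, 308 and 714 FPKM across labelled-deficient replicates 1 to 3 and 472, 379 and 1041 FPKM across those of WT, with -0.40 ± 0.63 (SE, limma adjusted p = 0.928), and Rps28 followed with -0.39 ± 0.67 (SE, limma adjusted p = 0.940). For all 4 the groups overlapped, and the lowest value of each was in labelled-deficient replicate 2. On the positive side Rps21 differed by 0.13 ± 0.66 (SE, limma adjusted p = 0.986), and Rps27a, made as a fusion with ubiquitin, by -0.10 ± 0.71 (SE, limma adjusted p = 0.990) on the negative side.

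Each library was next divided by its own member median, to show which members left the common level. Because the divisor comes from the members themselves, it lowers their spread by construction. The median SD of a member within a group was 0.19 log2 units in the labelled-deficient libraries and 0.11 in WT after that division, against 0.77 and 0.87 as deposited. Between 80.3% and 96.1% of the 76 members lay within 1.2-fold of their usual proportion in each library, and 35 did so in all 6. The usual proportion is the median over the 6 libraries of the gene's ratio to the member median. Across the 76 members, log2 FPKM correlated between pairs of libraries with a Pearson coefficient of 0.80 to 0.97, lowest in pairs with labelled-deficient replicate 3. These coefficients are across genes that share a library, and they describe that set only.

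**Figure D4:**
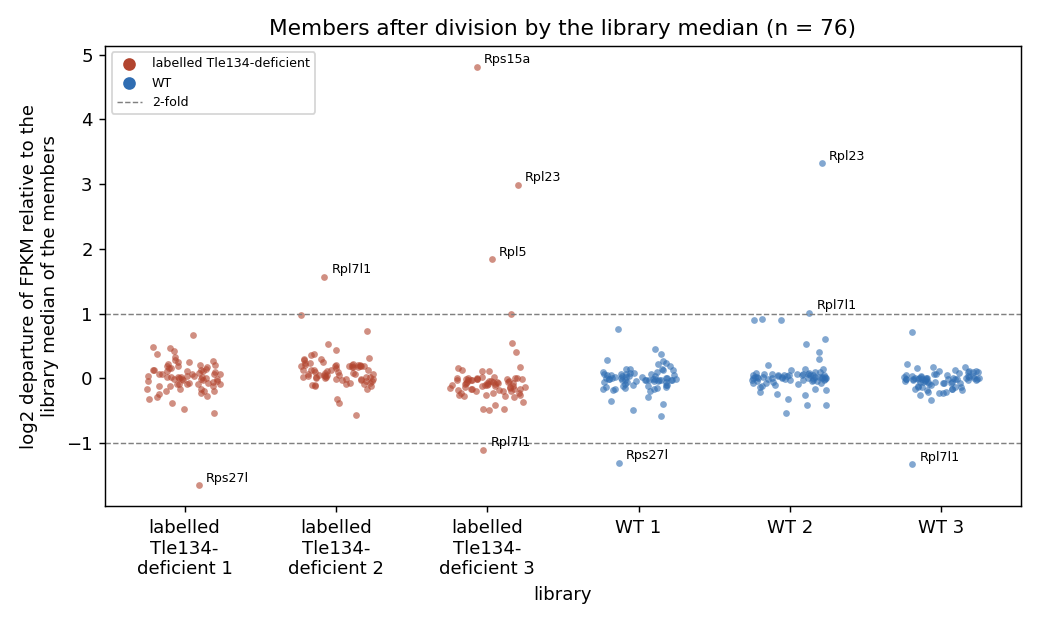
Log2 departure of each of the 76 members (y), after division by the library's member median, from the median of that ratio over the 6 libraries, by library (x), red for labelled Tle134-deficient and blue for WT. Most points lie close to 0, and the dashed lines mark 2-fold, beyond which Rps15a, Rpl23, Rpl5, Rpl7l1 and Rps27l are named.

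A departure of more than 2-fold in at least 1 library was seen for 5 members, and such departures were seen in libraries of both groups. Rps15a (chromosome 7, 125247890 to 125259666), a small subunit protein, was at 34.0, 19.9 and 1941 FPKM in labelled-deficient replicates 1 to 3, against 28.6, 26.9 and 83.5 FPKM in WT replicates 1 to 3. Labelled-deficient replicate 3 alone stood 28.04-fold above the gene's usual proportion, and without that library the log2 difference was -0.61, against 1.45 ± 1.57 with it (SE, limma adjusted p = 0.865). That usual proportion was itself far below the family. Rps15a stood at 1.99 times the member median in labelled-deficient replicate 3 and at 0.066 to 0.072 times in every other library. Whether the low values or the high one are failed estimates was not tested. An assembled locus without a symbol lay inside the gene in labelled-deficient replicate 1 only, from base 125259233 to 125259389 at 14559.8 FPKM. Such loci were not particular to Rps15a. In WT replicate 3, for example, they were at 170067 and 154607 FPKM inside Rpl5 and at 386517 FPKM inside Rpl19. Rpl23 was 7.91-fold above its usual proportion in labelled-deficient replicate 3 and 9.99-fold in WT replicate 2, and Rpl5 3.58-fold in labelled-deficient replicate 3. The other departures were those of the low paralogs Rpl7l1 and Rps27l. A named snoRNA or miRNA lay inside the span of 23 of the 81 members, Rpl23 among them, and not of Rpl5 or Rps15a. Of these RNAs, 33 had a row of their own inside a member's span, in all 6 libraries for 28 of them and in 4 or 5 for the other 5, and every such row was listed at 0.

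Relative to the member median, 5 members had groups that did not overlap (2 higher, 3 lower of 77, where 9.6% of all genes did so on this scale, 5.79% higher and 3.81% lower). They are named because there are only 5, after their values were seen. Rplp1 stood at 2.33, 2.56 and 2.27 times the member median in the labelled-deficient libraries, against 2.20, 2.12 and 2.03 times in WT. Rpl21 stood at 0.658, 0.616 and 0.881 times in the labelled-deficient libraries, against 0.592, 0.521 and 0.573 times in WT. Lower were Rpl28 (0.968, 1.12 and 1.08 times in the labelled-deficient libraries, against 1.22, 1.66 and 1.17 times in WT), Rpl10a and Rpl23a. None passed on that scale (smallest limma adjusted p of the 5 0.908, for Rpl28, with a log2 difference of -0.33 ± 0.19), and the members' shares were 2.60% higher and 3.90% lower.

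The paralogs were mostly far below their parents. Rpl36al, a near copy of Rpl36a whose reads may be split with it, was the most abundant of the 8, at 198, 81.4 and 397 FPKM across labelled-deficient replicates 1 to 3 and 163, 116 and 493 FPKM across those of WT. Its parent was at 330.4, 298 and 949.6 FPKM across labelled-deficient replicates 1 to 3 and 320.5, 336 and 996 FPKM across those of WT. Rpl7l1, named for its likeness to Rpl7, did not follow the family, at 14.2, 34.6 and 17.7 FPKM in labelled-deficient replicates 1 to 3, against 20.8, 30.04 and 17.9 FPKM in WT replicates 1 to 3. It was lowest in labelled-deficient replicate 1 and highest in labelled-deficient replicate 2, where the other members were low, and its level was 1.34% to 9.52% of that of Rpl7. Rps27l, whose human counterpart is a p53 target, was at 7.69, 17.96 and 56.1 FPKM across labelled-deficient replicates 1 to 3 and 8.50, 26.1 and 52.3 FPKM across those of WT, with its lowest value in the first library of each group. The 2 groups overlapped for each, with log2 differences of -0.11 ± 0.45 (SE, limma adjusted p = 0.984) for Rpl7l1 and -0.18 ± 0.77 (SE, limma adjusted p = 0.985) for Rps27l.

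The other 4 paralogs were low, and each was listed at 0 in at least 2 libraries. Rpl39l and Rpl10l, known from testis, were listed at 0 in 5 and 4 of the 6 libraries, and the values above 0 were 0.486 FPKM for Rpl39l in labelled-deficient replicate 3 and 1.49 and 0.460 FPKM for Rpl10l in WT replicates 1 and 3. Rpl3l, known from heart and skeletal muscle, was at 1.91 FPKM in labelled-deficient replicate 1 and listed at 0 in the other 5. Rps4l was at 5.11, 0 and 0.787 FPKM across labelled-deficient replicates 1 to 3 and 3.09, 0.971 and 0 FPKM across those of WT. These 4 did not reach the level required for testing, while their parents Rpl39, Rpl10, Rpl3 and Rps4x had means of 377, 619.8, 534 and 524 FPKM over all libraries.

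**Figure D5:**
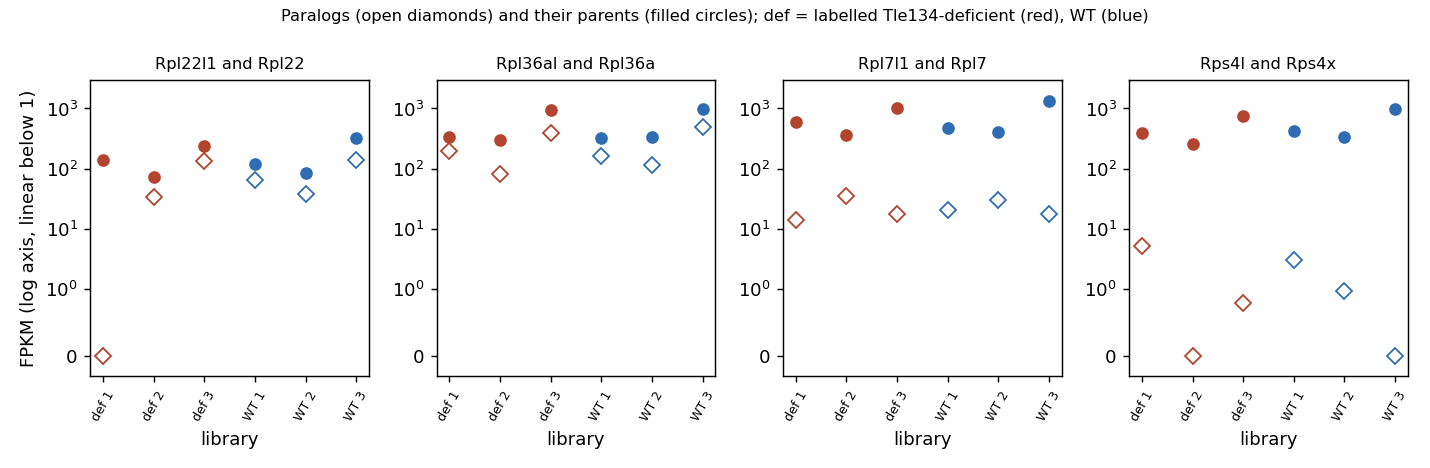
FPKM (y, log axis that is linear below 1) of 4 paralogs (open diamonds) and their parents (filled circles) by library (x), with labelled Tle134-deficient in red left of WT in blue. Rpl22l1 is at 0 in labelled-deficient replicate 1 and at 34.2 FPKM or more in the other 5, while Rpl22 is at 73.0 FPKM or more in all 6.

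Rpl22l1 had the most negative difference of the family, and that difference rested on a listed 0. The gene (chromosome 3, 28704433 to 28706337) was at 0, 34.2 and 134 FPKM in labelled-deficient replicates 1 to 3, against 64.1, 37.4 and 139 FPKM in WT replicates 1 to 3. In the 5 libraries above 0 it stood at 42.6% to 56.6% of Rpl22, and Rpl22 itself was at 142 FPKM in labelled-deficient replicate 1. In that library, 2 assembled loci without a symbol lay over the span of the gene, from base 28704429 to 28704850 at 76.6 FPKM and from base 28704950 to 28705168 at 126 FPKM. Loci without a symbol also overlapped it in 4 of the other libraries, at 18.8 FPKM in labelled-deficient replicate 2, 32.5 FPKM in labelled-deficient replicate 3, 38.6 FPKM in WT replicate 1, and 95.1 and 893 FPKM in WT replicate 3. The difference of -2.07 ± 1.65 (SE, limma adjusted p = 0.781) did not pass, and with that 0 set to missing it was -0.03. A value of 0 in 1 library against 5 FPKM or more in all others occurred for 45 genes in all, 14 of them in labelled-deficient replicate 1, and Rpl22l1 was the only member among them.

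Among values of 5 FPKM or more, some members carried intervals that reached 0. The lower bound was 0 and the upper bound more than 2 times the value for Rpl39 in labelled-deficient replicate 1 (206 FPKM, interval to 63438), Rpl22l1 in labelled-deficient replicate 2 (34.2 FPKM, to 466), and Rpl4 and Rpl5 in labelled-deficient replicate 3 (845 FPKM, to 23122, and 5485 FPKM, to 12353). In WT the same held for Rps15 in replicates 1 and 2 (351 FPKM, to 49995, and 268 FPKM, to 19195) and Rpl8 in replicate 2 (543 FPKM, to 2182). The values of Rpl39, Rpl4, Rpl8 and Rps15 lay with the rest of the family, within 2-fold of their usual proportion. In contrast, the high values of Rps15a and Rpl23 had narrow intervals. These were 1823 to 2058 FPKM for Rps15a and 5075 to 5657 FPKM for Rpl23 in labelled-deficient replicate 3. For Rpl23 in WT replicate 2 the interval was 2493 to 2840 FPKM. A narrow interval thus did not mark a value that lay with the family. Assembled loci without a symbol that overlapped member spans numbered 6, 14 and 8 in labelled-deficient replicates 1 to 3 and 5, 5 and 8 in WT. One of them recurred in every library, inside Rpsa at about base 120038484 to 120038667 on chromosome 9, at 13669, 8484 and 19775 FPKM in labelled-deficient replicates 1 to 3 and 18786, 16722 and 30791 FPKM in WT. It lay outside the row of Snora62, the snoRNA named inside Rpsa.

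The 7 symbols that shared a row lay in 6 joined rows, and within each group all 6 were highest in replicate 3. The row of Rpl26 with Gm15772 was at 2003, 1247 and 3734 FPKM in labelled-deficient replicates 1 to 3, against 1590.1, 1367 and 4633 FPKM in WT. The row that joins Rps27 and Rps27rt was at 1434, 1369 and 1839 FPKM under the deficient label, against 769, 1243 and 2188 FPKM in WT. Those of Rpl34 and Rpl30 were at 1213, 682 and 1765 FPKM and at 468, 248 and 729 FPKM in labelled-deficient replicates 1 to 3, against 744, 663 and 2054 FPKM and 302, 319 and 883 FPKM in WT. None of the 6 rows passed the test (smallest limma adjusted p = 0.817, for the row of Rpl37rt with Acads).

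Genes that work with the ribosomal proteins were read from 4 lists. None of the 22 tested translation factors and other genes with pyrimidine-tract mRNAs passed (median log2 difference -0.05). Eef1d, an exchange factor of elongation factor 1, had the smallest p, at 53.1, 26.8 and 87.1 FPKM in labelled-deficient replicates 1 to 3, against 23.8, 16.6 and 53.7 FPKM in WT (0.83 ± 0.57, SE, limma adjusted p = 0.730). Eif4a2 was at 59.0, 264.7 and 81.8 FPKM under the deficient label, against 36.1, 69.7 and 141 FPKM in WT, and Eif3h at 72.7, 51.9 and 155 FPKM under the deficient label, against 90.2, 66.3 and 197 FPKM in WT. The groups overlapped for all 3.

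None of 42 ribosome biogenesis genes passed (median -0.06). Groups did not overlap for 1 of them as higher and 1 as lower. The same held for 1 of the 73 mitochondrial ribosomal protein genes tested, as higher, and 1 of the 18 growth signalling genes, as lower. Over all genes tested, 15.2% had groups that did not overlap. Utp20, a factor of small subunit processing, was at 40.9, 11.3 and 13.1 FPKM in labelled-deficient replicates 1 to 3, against 5.83, 5.33 and 7.83 FPKM in WT, with no overlap (1.41 ± 0.52, limma adjusted p = 0.355). Ncl, which encodes nucleolin, was at 76.8, 56.9 and 154 FPKM under the deficient label, against 73.4, 246 and 560.2 FPKM in WT, and Ddx21, a nucleolar helicase, at 30.5, 22.9 and 41.6 FPKM under the deficient label, against 59.3, 42.5 and 47.8 FPKM in WT, Ddx21 without overlap. None of 73 mitochondrial ribosomal protein genes passed (median -0.01), with Mrpl51 at 16.2, 7.18 and 14.04 FPKM under the deficient label, against 6.73, 3.48 and 7.60 FPKM in WT at the smallest p (limma adjusted p = 0.573). Mrpl34 was at 5.81, 9.58 and 25.3 FPKM under the deficient label, against 21.0, 17.6 and 51.3 FPKM in WT. Mrps12 was at 5.33, 7.42 and 13.4 FPKM under the deficient label, against 19.6, 9.77 and 22.3 FPKM in WT. The groups overlapped for Mrpl51, Mrpl34 and Mrps12. Of 18 growth signalling genes 0 passed (median 0.02). Mycn, a Myc family factor that drives ribosome production, was at 4.36, 1.84 and 6.18 FPKM in labelled-deficient replicates 1 to 3, against 12.02, 13.7 and 17.4 FPKM in WT, without overlap (-1.67 ± 0.47, limma adjusted p = 0.193). Larp1, which binds the pyrimidine tract, was at 17.1, 13.5 and 17.4 FPKM under the deficient label, against 30.6, 14.96 and 28.2 FPKM in WT, with overlap, and Eif4ebp1, an mTOR target, at 14.5, 11.7 and 33.1 FPKM under the deficient label, against 5.17, 9.87 and 15.9 FPKM in WT, also with overlap.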

How the data were processed

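The build was mm9, and featureCounts 2.0.1, TopHat2 2.1.1 and Trimmomatic 0.38 were used in roles not stated, per the submitters' processing notes. The deposited tables hold FPKM and an interval per locus, per the file headers, in the layout of a Cufflinks gene table. The sources used here do not give its version, its annotation or whether strand was used. Loci without a symbol made up 67.5% to 87.0% of each table. Tables were joined by symbol after snoRNA and miRNA symbols were dropped, and symbols sharing a row in any library were joined and their FPKM added (Python 3.11.15, pandas 2.3.3). Genes at 1 FPKM or more in at least 3 libraries were fitted as log2(FPKM + 1) with limma 3.58.1 in R 4.3.3 (group as the only term, trend and robust steps), which understates changes of low genes, with Benjamini-Hochberg adjustment over all genes tested and a threshold of 0.05. The fit was tested on simulated data, with errors drawn separately for each gene, unlike the members here, which moved together from library to library. It recovered 74% of changes of 2 log2 units and 100% of those of 4, with 8 false calls among unchanged genes. Named members are the extremes of level and difference, members with a listed 0, the paralogs and their parents, and a set chosen for its known roles; the pathway genes named are the 3 with the smallest p of a list. Of the named members, 1 is not reported here. The members and lists were chosen with earlier results of these data known. Alternatives changed the pseudocount, filter, scaling, treatment of 0, empirical Bayes steps, replicate block and libraries included.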

Additional observations from a re-analysis of the deposited data

How the results depend on the processing

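In each alternative run, 0 members passed the threshold, and 0 of the 4 pathway lists' genes did. The member median log2 difference was -0.16 to -0.09 under the other pseudocounts, filters, normalizations and treatment of 0, 0.02 with each library scaled to the member median (all genes 0.15, against 0.04 as deposited), and -0.56 to 0.40 over the leave-one-out fits. The labelled-deficient minus WT difference in the members' percent of summed FPKM was -0.64 points, -2.03 with the 5 FPKM filter, -1.78 without the genes above 10000 FPKM and -4.81 without both libraries numbered 3, and -3.29 to 2.85 points with 1 library left out. Of the 37 named members tested, 33 changed sign under at least 1 alternative; Rpl22l1, Rpl28, Rps3 and Rpsa did not. Over all genes, 87 calls as deposited became 53 in limma with a pseudocount of 0.1, 0 of 18927 without a filter (1179 at an unadjusted p under 0.05), 6 with equal sums, 29 with equal member medians and 30 without both libraries numbered 3 (both chosen after seeing the data), and 0 to 69 without 1 library each (0 without labelled-deficient replicate 1 or 2 or WT replicate 1, 2 without WT replicate 2, 36 without labelled-deficient replicate 3); the cause was not tested. The replicate block gave 2 calls over all genes and 0 members; libraries with the same number deviated together with correlations of 0.0822, 0.174 and 0.175, not all above 0.1, so the block is no established pairing, though each library correlated best with its own number, a hint from the data and not the design. Intervals cover the deposited estimate only, and with 3 libraries a group the member differences cannot be resolved below their SE.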
